A study of Mus musculus with 4 samples.

Results

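Sp7-positive osteoblasts are the cells of the embryonic nose that carried transcripts of both Runx2 and Sp7, the pair of transcription factors that bone formation requires. They were chosen by a gate on the counts of each cell. A member had at least 1 UMI (a tag that marks 1 captured transcript molecule) of Runx2 (chr17:44495987-44814797, GRCm38) and at least 1 of Sp7 (chr15:102356606-102367182), no UMI of the epithelial gene Epcam or the endothelial gene Pecam1, and fewer than 5 UMIs of the cartilage collagen gene Col2a1. Of 13739 cells kept from 4 libraries of whole noses at embryonic day 14.5, 586 met the rule. Controls 1 and 2 gave 226 and 93 of them, and mutants 1 and 2 gave 101 and 166. The mutant embryos carried Tg(Sox10-cre)1Wdr, a Cre recombinase under Sox10 regulatory sequence, which is active in neural crest cells and their descendants. The series design gives their floxed alleles as yap flox/WT and taz flox/flox, so that a wild-type Yap allele remained. The controls have 2 descriptions, since the sample labels name C57Bl/6J whereas the series design gives yap flox/flox;taz flox/flox without Cre. If the design is right, floxed Yap and Taz alleles were shared by all 4 libraries, and the groups differed in Cre and in the number of floxed Yap alleles.

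Osteoblasts build bone by secreting type I collagen and then mineralizing it. In the face most of them descend from neural crest. Runx2 sets mesenchymal cells on the osteoblast path, Sp7 (osterix) acts after it and is needed for the step to a committed osteoblast, and Alpl, Ibsp, Spp1 and Bglap come on in turn as the cell starts to make mineralized matrix. YAP (gene Yap1) and TAZ (gene Wwtr1) are the transcriptional coactivators of the Hippo pathway; they bind TEAD factors and switch on genes such as Ccn1, Ccn2 and Amotl2.

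The noses had been dissociated with papain, frozen and profiled with the 10x Genomics 3′ assay, per the labels' protocols, and nothing there says whether libraries of a group came from separate litters, so that p-values measure the spread between these libraries alone. Library preparation and sequencing went to more than one provider, per the same protocols, and which library went where was not given in the sources used here. The kept cells held 19767873 to 35331450 UMIs per library. Pairs of libraries shared 3 to 5 kept barcodes, and none of the shared barcodes was a member in both. The members' median depth was 10393, 10385, 11183 and 8523 UMIs in control 1, control 2, mutant 1 and mutant 2, the order used for every set of 4 values below. Over all kept cells the median was 7033, 6879, 8549 and 5282 UMIs, so the members were deeper than the average cell in every library. Their median mitochondrial share was 2.35 to 2.69% per library. Among the members, 22 were in the set of cells with the highest doublet scores, and 3 carried transcripts of immune cells. Of these 3, 1 in mutant 2 held 212 UMIs of the mast cell protease gene Cma1, 129 of Cpa3 and 0 of C1qa and Lyz2.

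Most members passed the gate with little to spare on Sp7. An Sp7 count of 1 was found in 323 of the 586, of 2 in 113 and of 3 or more in 150, with 13 as the highest. Runx2 was read more deeply, with a median of 10, 11, 12 and 8 UMIs per member and a count of 1 in 27 members. At the edge of the gate, 50 cells with Runx2 and Sp7 were turned away, 18 for Epcam, 13 for Pecam1 and 22 for Col2a1, some for more than one. Col2a1 was absent from 458 members, 8 members had 4 UMIs of it, and 3 cells outside had 5. A further 74 cells carried Sp7 without Runx2.

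Markers that the gate did not use were frequent in the members. Alpl, the tissue-nonspecific alkaline phosphatase that frees phosphate for mineral (chr4:137741733-137796384), was detected in 85.8, 73.1, 77.2 and 83.1% of members, against 31.6, 23.7, 34.2 and 32.5% of Runx2-positive cells that passed the same gate but had no Sp7 UMI (3122 cells, called Sp7-negative below). Dlx5, a homeodomain factor that acts upstream of Sp7, was detected in 45.6, 59.1, 46.5 and 53.6% of members and 12.3, 11.3, 11 and 9.90% of Sp7-negative cells. In both cases every library showed the higher share in the members. Ibsp, the gene of bone sialoprotein (chr5:104299171-104311469), was detected in 35.7% of all members and 8.26% of Sp7-negative cells. Ifitm5, whose membrane protein is made almost only in bone-forming cells, was detected in 34.8% and 3.72%, and Smpd3, a sphingomyelinase needed for mineralization, in 40.4% and 3.68%.

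Some markers of later osteoblasts were rare, though Ifitm5, which is also in the late osteoblast list used below, was not. Phex, an endopeptidase gene of late osteoblasts and osteocytes, was detected in 13.8% of members, Spp1 (osteopontin) in 8.53%, Dmp1 in 4.78% and Bglap (osteocalcin) in 3.07%. Free RNA in droplets gives a floor for such shares. Macrophage-gated cells were taken to gauge it, which assumes that they do not express the gene. Macrophage-gated cells, with a median depth of 7750 to 10314 UMIs per library, carried a UMI of Ibsp in 8.05%, of Spp1 in 8.05%, of Ifitm5 in 3.36%, of Runx2 in 14.8%, of Alpl in 3.36% and of Sp7 in 0.671% of 298 cells. The Spp1 share of members was close to that of macrophage-gated cells, as was the Ibsp share of Sp7-negative cells. Neither share alone is read as expression. For Spp1 the gauge is uncertain. Macrophage-gated cells held 53.8, 10.6, 51.8 and 207 CPM of it (CPM is defined below). All kept cells outside the member gate held 12.6, 8.55, 46.4 and 42.1 CPM. Whether macrophage-gated cells express Spp1 themselves was not tested, so their Spp1 share may not measure free RNA alone. The Ibsp level of Sp7-negative cells, given below, was above that of macrophage-gated cells in every library. Whether free RNA adds to that level was not tested. Among the members with an Spp1 UMI, however, the counts were high, as the levels below show. Bglap was detected in 18 members.

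The summed level of the 5 osteoblast markers was 9537, 4054, 5233 and 5201 counts per 1000000 UMIs (CPM, from the summed UMIs of all cells of a group) in members and 240 to 418 CPM per library in the remaining cells, a sum that includes the genes of the gate. The marker lists of 9 other cell types each summed to less in members than in the remaining cells, in every library. The chondrocyte list (7 of 8 markers detected, Col10a1 at 0) summed to 77.9 to 115 CPM in members and 203 to 511 CPM in the rest. The macrophage and osteoclast list (8 of 8 detected) summed to 31.1, 122, 4.04 and 16.9 CPM in members and 189 to 312 CPM in the rest, and the neuronal list (4 of 5, Neurod1 at 0) to 132, 146, 248 and 162 CPM against 231 to 266 CPM. The gate itself kept Epcam and Pecam1, markers of the epithelial and endothelial lists, at 0 and capped Col2a1 of the chondrocyte list, so the sums of those 3 lists were in part fixed by the rule. The glial list (5 of 6, Foxd3 at 0) summed to 6.38, 3.80, 11.3 and 6.89 CPM, the epithelial list to 3.76 to 10.8 CPM, the endothelial list to 0.808 to 6.89 CPM, the muscle list to 3.80 to 28.8 CPM, the mural list to 32.3 to 90.5 CPM and the erythroid list to 0.797 to 11.4 CPM. Alpl, Dlx5 and Ibsp, which the gate did not use, went with the label osteoblast. Phex, Spp1, Dmp1 and Bglap were each found in a small fraction of members, whereas the mineralization genes Alpl, Smpd3 and Ifitm5 were more frequent.

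**Figure D1:**
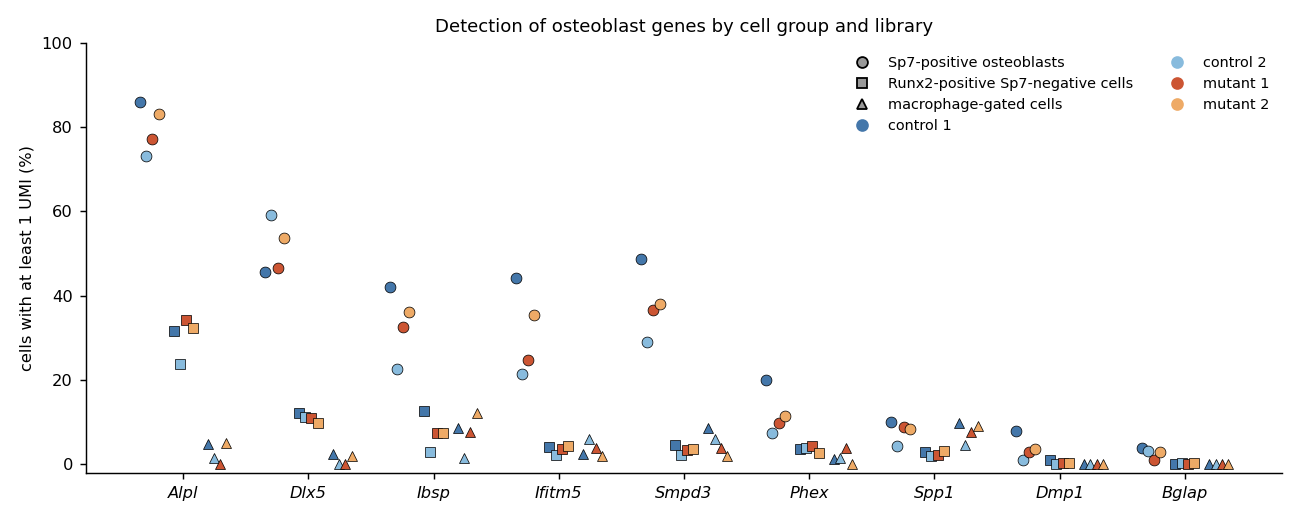
Share of cells with at least 1 UMI (y axis, percent) of 9 osteoblast genes (x axis), with 1 point per library, for Sp7-positive osteoblasts (circles), Runx2-positive Sp7-negative cells (squares) and macrophage-gated cells (triangles). Alpl lies between 73.1 and 85.8% in Sp7-positive osteoblasts, and Spp1, Dmp1 and Bglap lie at 10.2% or lower.

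The share of kept cells in the gate asks whether the Sox10-Cre mutants hold fewer or more committed osteoblasts. It was 5.55% in control 1 (95% exact Clopper-Pearson interval 4.86 to 6.29%), 3.76% in control 2 (3.04 to 4.59%), 3.37% in mutant 1 (2.76 to 4.08%) and 3.96% in mutant 2 (3.39 to 4.59%), intervals that cover counting error only. Control 1 stood above the other libraries, and the groups overlapped, since mutant 2 exceeded control 2. The means were 4.65% ± 1.26 (SD, n = 2) in controls and 3.66% ± 0.41 (SD, n = 2) in mutants, a difference of -0.99 percentage points (exact two-sided permutation test over libraries, p = 0.667). Without control 1 the difference was -0.094 percentage points. With 2 libraries against 2 that test cannot give a p under 0.333.

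After each cell was thinned to 3000 UMIs, which leaves 3807, 2302, 2784 and 3652 cells of at least that depth, the share was 2.94, 2.30, 1.47 and 1.97%, and both mutants were then below both controls (p = 0.333, the smallest this exact permutation test allows). Among cells that passed the Runx2, Epcam, Pecam1 and Col2a1 parts of the gate, Sp7 was detected in 18.7, 14.1, 13.2 and 15.4%. Thinned, that share was 12.7, 11, 7.72 and 9.07%, again with no overlap between the groups and p = 0.333 in the exact permutation test.

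The share of members with transcripts of the cell cycle did not separate the groups. After thinning, 20.9, 30.8, 23.2 and 27.7% carried a UMI of Mki67 or Top2a, genes of dividing cells (means 25.8% ± 6.97 in controls and 25.5% ± 3.14 in mutants, SD, n = 2 each, exact permutation p = 1). The controls held both the lowest and the highest value. In Sp7-negative cells the thinned share was 17.9, 18.0, 13.8 and 15.8%, and there both mutants were below both controls (exact permutation p = 0.333). Unthinned, 29.2, 38.7, 30.7 and 38.6% of members carried such a UMI.

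**Figure D2:**
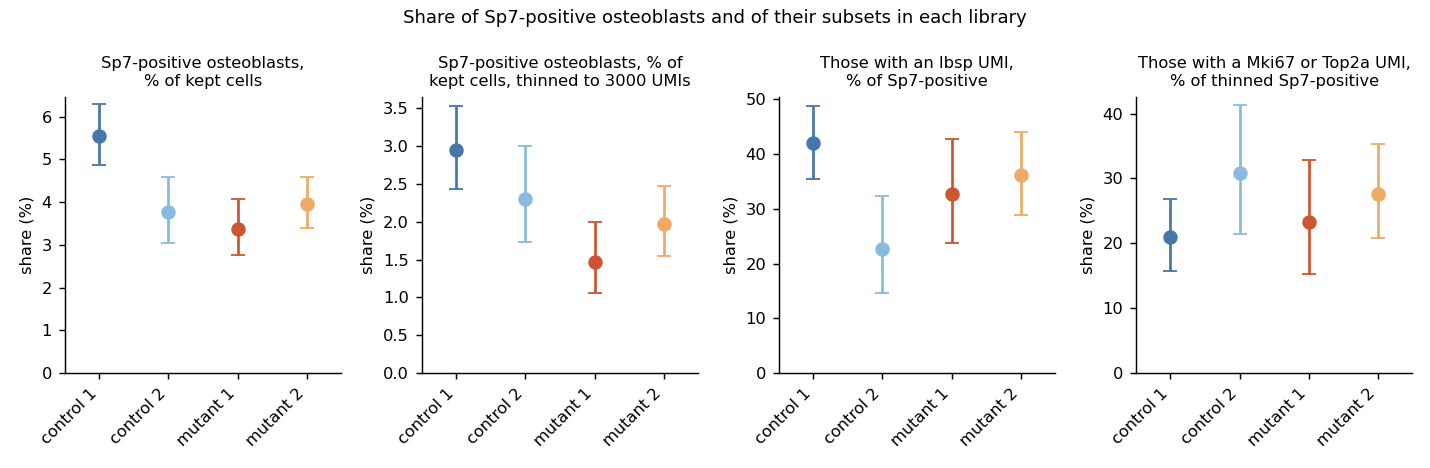
Share (y axis, percent) of Sp7-positive osteoblasts among kept cells, the same after thinning to 3000 UMIs, and the shares of Sp7-positive osteoblasts with an Ibsp UMI and with a Mki67 or Top2a UMI, for each library (x axis), with 95% exact Clopper-Pearson intervals as bars. Only the thinned share of kept cells separates the groups among the 4 panels, with controls at 2.94 and 2.30% and mutants at 1.47 and 1.97%.

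What the Sp7-positive cells express beyond the gate was described against the Sp7-negative cells of the same libraries, from counts summed per library and group, with the library as a block. The Sp7 UMIs of the same cells drew the line between these groups, and members were deeper (median 8523 to 11183 against 5517 to 8722 UMIs). The differences therefore describe what the gate gathered. Sp7-negative cells had a median of 2 Runx2 UMIs in every library. Their macrophage and osteoclast list summed to 93.6, 195, 43.4 and 148 CPM and their erythroid list to 3.48, 1001, 15.7 and 6.57 CPM. How many of them hold stray Runx2 transcripts was not tested. The counts of genes past an adjusted p of 0.05 (edgeR quasi-likelihood test, Benjamini-Hochberg) are given beside the background of all genes and nothing is read from them. That background was 3326 of 12270 genes, or 27.1%, with 1708 higher (13.9%) and 1618 lower (13.2%). With all cells thinned to 3000 UMIs it was 1553 genes, of which 1504 were among the 3326.

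The promoters of Ifitm5 and Ibsp, the genes with the widest gap among those named by rule, are shown, each printed 5′ to 3′ on its own strand from 250 bases before to 50 after the start of transcription (RefSeq, GRCm38.p6). Ibsp lies at chr5:104299037-104299336 on the plus strand and Ifitm5 at chr7:140950194-140950493 on the minus strand. Capitals mark matches, on either strand, to the letters TGTGGT (the core that RUNX factors bind), TAATTA (a homeodomain core), CCAAT or TATAA.
Ibsp: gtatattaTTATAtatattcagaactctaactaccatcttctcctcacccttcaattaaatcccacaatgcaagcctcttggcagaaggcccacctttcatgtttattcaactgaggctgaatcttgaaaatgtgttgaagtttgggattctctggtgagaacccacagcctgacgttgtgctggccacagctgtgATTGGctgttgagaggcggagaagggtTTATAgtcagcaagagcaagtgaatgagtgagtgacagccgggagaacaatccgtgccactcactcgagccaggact
Ifitm5: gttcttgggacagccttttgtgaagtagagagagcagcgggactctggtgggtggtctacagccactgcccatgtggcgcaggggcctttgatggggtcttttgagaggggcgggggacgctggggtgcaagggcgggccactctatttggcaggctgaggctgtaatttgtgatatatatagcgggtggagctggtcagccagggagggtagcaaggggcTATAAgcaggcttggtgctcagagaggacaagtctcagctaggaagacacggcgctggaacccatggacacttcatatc
Ibsp held 1 CCAAT and 2 TATAA matches and Ifitm5 held 1 TATAA match, placed ahead of the transcription start in both; neither window held TGTGGT or TAATTA. Among all 32851 promoter windows of this length, 16.8% held TGTGGT, 5.29% TAATTA, 37.4% CCAAT and 24.9% TATAA. The same shares were 10.8, 2.32, 41.2 and 15.2% in 1681 windows of genes higher in members, and 9.65, 3.12, 34.3 and 14.5% in 1730 windows of genes lower in them. The share with TGTGGT was below that of all windows in both sets. Of the 15 higher genes named by rule, 11 had an entry, with 17 windows in all, and Sgms2 alone had a window with TGTGGT.

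Of the osteoblast transcription factors, 8 of 15 tested genes were higher in members and 4 were lower, with a median log2 difference of 0.44 (all genes 0.00). Dlx5 stood at 93.3, 122, 66.3 and 114 CPM in members and 27.9, 20.1, 19.1 and 24.3 CPM in Sp7-negative cells, a log2 difference of 2.21 ± 0.14 (SE). Its partners Dlx3 and Dlx6 differed by 3.41 ± 0.26 and 2.41 ± 0.22. All 3 were higher in members in every library. Mef2c, a MADS-box factor, stood at 756, 685, 656 and 700.1 against 283, 292, 411 and 307 CPM (1.27 ± 0.10). Runx3, Msx1, Msx2 and Atf4 were higher as well. Lower in members were Id4 and 3 genes whose products are known to restrain Runx2: Twist2 at 18.3, 29.4, 38.8 and 32.0 against 118, 158, 156 and 137 CPM (-2.16 ± 0.12), Twist1 (-0.65 ± 0.09) and Zfp521 (-0.64 ± 0.08). Runx1, Cbfb and Fosl2 did not pass the threshold. Runx2 itself, which the gate used, was at 1109, 1166, 1134 and 1189.7 CPM in members and 520.3, 494, 515 and 602 CPM in Sp7-negative cells, and Sp7 at 198, 181, 175 and 191 CPM in members.

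The matrix genes split. Of 21 tested, 11 were higher and 6 lower in members (median 0.45). Ibsp stood at 7714, 2275, 3459 and 3287 CPM in members, with control 1 far above the rest, and 186, 317, 81.4 and 354 CPM in Sp7-negative cells (4.33 ± 0.38). Macrophage-gated cells held 10.8, 1.52, 8.36 and 19.1 CPM of Ibsp, below the Sp7-negative cells in every library. The type I collagen chain Col1a1 stood at 7594, 3999.7, 3608 and 4454 against 2398, 2708, 1951 and 2519.8 CPM (1.12 ± 0.13), and Col1a2 and Sparc, whose product binds collagen and calcium, differed by 0.89 ± 0.13 and 0.85 ± 0.14. Col24a1, a fibrillar collagen of forming bone, differed by 1.70 ± 0.20 and Omd, a small proteoglycan of bone, by 2.04 ± 0.14. Lower in members were genes of looser connective tissue and of undifferentiated mesenchyme: Dcn (-1.64 ± 0.17), Fbn2 (-1.59 ± 0.10), Postn (-0.66 ± 0.10), Bgn (-0.50 ± 0.09), Mgp, an inhibitor of mineralization (-0.47 ± 0.09), and Col3a1 (-0.23 ± 0.07).

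Of 9 tested mineralization genes 6 were higher and none was lower (median 1.95). Ifitm5 stood at 795, 233, 419.5 and 401 CPM in members and 20.5, 21.0, 9.22 and 29.7 CPM in Sp7-negative cells, a log2 difference of 4.66 ± 0.26. Smpd3 stood at 433, 348, 372 and 247 against 18.4, 41.6, 16.7 and 22.4 CPM (4.03 ± 0.20) and Alpl at 422, 309, 398 and 419 against 84.4, 63.1, 82.3 and 115 CPM (2.32 ± 0.09). Each library of members lay above each library of Sp7-negative cells for all 3. Enpp1, which makes pyrophosphate, an inhibitor of mineral growth, differed by 0.79 ± 0.23. Phospho1, Mepe and Fam20c were below the count filter, with Mepe at 1.99, 0.95, 0 and 2.51 CPM.

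Of the machinery that folds, modifies and exports collagen, 14 of 24 tested genes were higher, 1 was lower and 9 did not pass (median 0.38). Creb3l1, a factor that drives secretory genes in osteoblasts, stood at 161, 97.8, 98.6 and 119.7 against 41.7, 41.2, 32.5 and 53.5 CPM (1.66 ± 0.13). The prolyl hydroxylase subunits P4ha2 (1.31 ± 0.13) and P4ha1 (0.91 ± 0.13), the collagen chaperones Fkbp10 (1.15 ± 0.12) and Serpinh1 (0.73 ± 0.08) and the retrieval receptors Kdelr3 (0.87 ± 0.13) and Kdelr2 (0.79 ± 0.09) were all higher. Loxl1, a cross-linking enzyme better known from elastic fibres, was the one lower gene (-1.29 ± 0.17).

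Genes of other roles with the widest gaps were Panx3, a channel protein of osteoblasts and hypertrophic cartilage, at 128, 77.9, 89.7 and 97.2 against 6.70, 6.56, 4.53 and 8.17 CPM (4.08 ± 0.15), Fabp3, a fatty acid binding protein (3.58 ± 0.23), Sgms2, a sphingomyelin synthase whose human gene is mutated in a form of bone fragility (3.43 ± 0.16), Slc8a3, a sodium-calcium exchanger (3.14 ± 0.16) and Kcnma1, a calcium-gated potassium channel (2.66 ± 0.09). Cd200, Timp1, Fat3, Tmem119 and Metrnl followed with log2 differences between 1.96 and 2.25. The widest gaps in the other direction were those of Zfp804b at 13.6, 10.4, 12.1 and 8.15 against 95.5, 103, 77.3 and 90.4 CPM (-2.87 ± 0.15) and of Dlk1, a membrane protein of progenitor cells, at 86.1, 51.3, 70.3 and 99.7 against 382, 401, 387 and 413 CPM (-2.21 ± 0.12). Meg3 (-1.89 ± 0.06) and Rian (-1.85 ± 0.10), noncoding RNAs of the same imprinted locus as Dlk1, were lower as well. Igf1, Igfbp2, Nrg1, Tgfbr3, Sostdc1, Tubb2b, Akap12, Sgcz, Ncam2 and Nrxn3 lay between -2.13 and -1.74. For the 30 genes the text names by this rule, direction and threshold side were the same in all 419 alternative fits with a value. These genes were chosen for wide gaps past the threshold, and the fits reuse cells of the same libraries. The agreement follows in part from that choice and is no independent support.

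Of 24 tested Wnt genes 15 were lower in members and 5 higher (median -0.58). The secreted ligands and agonists Wnt11 (-1.97 ± 0.32), Wnt5a (-0.96 ± 0.17), Rspo2 (-1.72 ± 0.31) and Rspo3 (-1.40 ± 0.12) were lower. The receptors were mixed, with Lrp5 higher (0.53 ± 0.16) and Lrp6 and Fzd2 lower. Among nuclear factors Tcf7 stood at 64.2, 56.0, 55.8 and 60.8 against 8.31, 5.43, 7.93 and 11.7 CPM (2.96 ± 0.16), whereas its relative Lef1 was lower (-0.35 ± 0.09). The antagonists divided as well: Dkk1 (1.35 ± 0.21), Wif1 (1.21 ± 0.10) and Notum were higher, and Sfrp2 (-1.37 ± 0.11), Sfrp1 (-1.16 ± 0.18) and Dkk2 (-1.06 ± 0.11) were lower. Axin2, a common readout of Wnt signalling, was lower (-0.67 ± 0.16).

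In the BMP pathway 7 of 23 tested genes were higher and 4 lower (median 0.05). The ligands Bmp2 (1.07 ± 0.13) and Bmp6 (0.95 ± 0.12) were higher, as were the inhibitors Nog (1.45 ± 0.21), Bambi (1.14 ± 0.10) and Smad6 (0.63 ± 0.11), while the receptor genes Bmpr1b (-1.47 ± 0.25) and Bmpr1a (-0.30 ± 0.08) and the extracellular inhibitor Grem1 were lower. Ihh, the hedgehog ligand of cartilage and bone, stood at 9.57, 16.1, 9.70 and 13.2 CPM in members against 0.134, 0, 0 and 0.888 CPM in Sp7-negative cells, the widest log2 difference of any list gene (5.50 ± 0.53). Its receptor Ptch1 was higher (0.44 ± 0.11), and the coreceptors Cdon, Gas1 and Boc were lower, with log2 differences of -1.54 ± 0.13, -1.27 ± 0.08 and -1.17 ± 0.10. In all, 2 of 11 hedgehog genes were higher and 4 lower (median -0.12).

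Of 13 FGF genes 2 were higher and 6 lower (median -0.58). Fgfr3 stood at 25.9, 12.3, 24.2 and 28.8 against 7.77, 2.94, 5.50 and 7.28 CPM (2.08 ± 0.18) and Fgfr2 differed by 0.32 ± 0.08, while the ligand Fgf18 (-1.78 ± 0.42) and the feedback genes Dusp6 (-1.46 ± 0.22), Spry1 (-1.33 ± 0.18) and Spry2 (-1.21 ± 0.20) were lower. The parathyroid hormone receptor Pth1r stood at 233, 162, 199 and 251 against 84.4, 94.1, 83.1 and 116 CPM (1.31 ± 0.10) and the vitamin D receptor Vdr differed by 2.50 ± 0.38, while the ligand Pthlh (-1.60 ± 0.23) and Efnb2 were lower, so that 2 of 9 genes of this list were higher and 2 lower (median -0.09). Tnfsf11, the osteoclast-inducing RANK ligand, stood at 12.4, 7.60, 5.66 and 7.52 against 6.83, 2.71, 6.96 and 6.93 CPM and did not pass the threshold. Of 7 Notch genes Hey1 was higher (0.88 ± 0.17) and Hey2 and Notch2 were lower (median -0.36).

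Of 16 tested patterning genes of the facial mesenchyme 11 were lower, 1 was higher and 4 did not pass (median -0.60). Osr2 (-2.13 ± 0.16), Osr1 (-1.95 ± 0.32), Shox2 (-1.52 ± 0.15), Pax9 (-1.31 ± 0.26) and Pax3 (-1.17 ± 0.12) were lower, while Prrx2 (0.34 ± 0.08) was higher. Of 19 YAP and TAZ genes 7 were lower and 2 higher (median -0.31). Wwtr1 stood at 93.7, 84.5, 82.4 and 72.7 against 127, 143, 127 and 134 CPM (-0.52 ± 0.09), Tead1 differed by -0.56 ± 0.07 and Vgll3, which competes for TEAD, by -1.58 ± 0.17, while Yap1 (-0.08 ± 0.11) did not pass. Proliferation genes were higher in 9 of 20 cases and lower in none (median 0.43), with Ccnb1 at 0.93 ± 0.13 and Mki67 at 0.54 ± 0.12. Genes of the dissociation response were higher in 2 of 15 cases and lower in 2 (median 0.07). Of 7 late osteoblast and osteocyte genes, some of them also in the lists above, 5 were higher and 1, Pdpn, was lower.

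**Figure D3:**
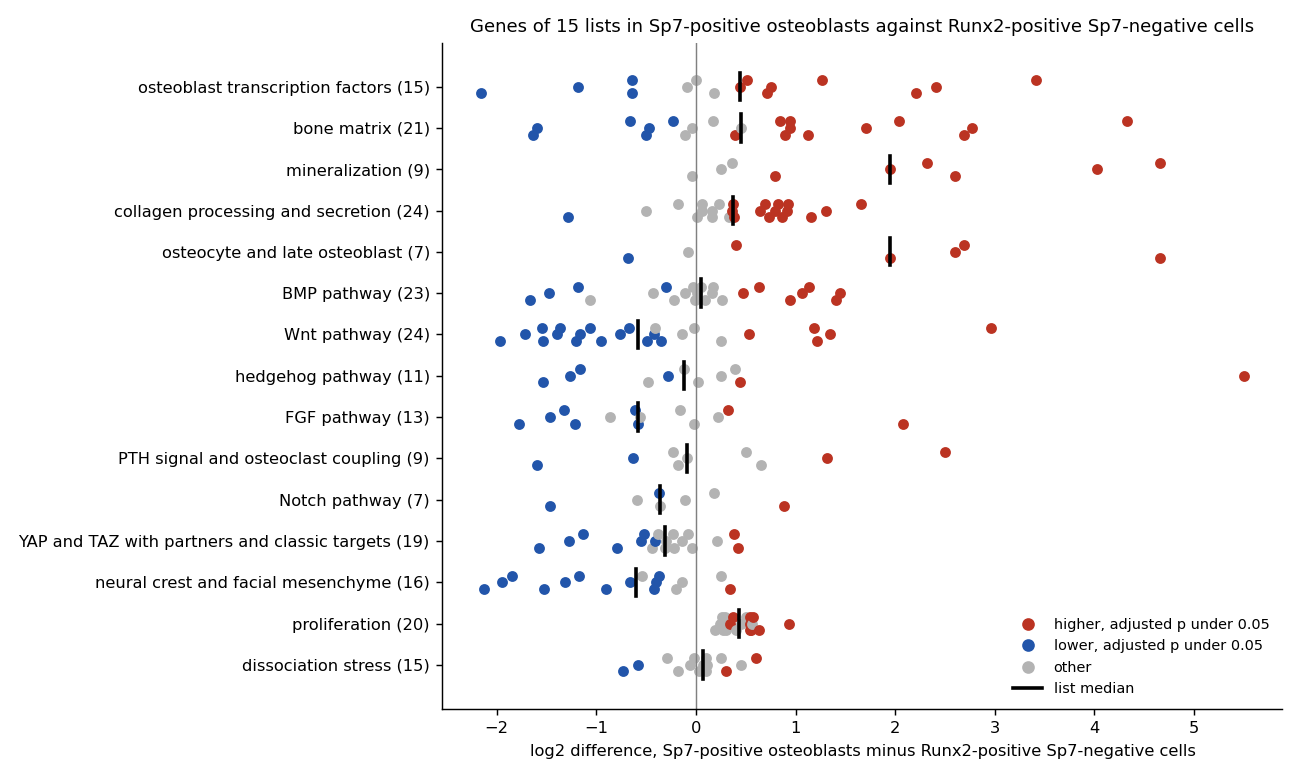
Log2 difference (x axis) between Sp7-positive osteoblasts and Runx2-positive Sp7-negative cells for the tested genes of 15 lists (y axis, number tested in brackets), 1 point per gene, coloured where the adjusted p was under 0.05, with the list median as a black bar. Mineralization genes have the median farthest to the right together with the late osteoblast list (both 1.95), and the facial mesenchyme (-0.60), Wnt and FGF (both -0.58) lists have the lowest medians; the point farthest to the right is Ihh.

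The members were not uniform. Ibsp was detected in 42.0% of members in control 1 (95% exact interval 35.5 to 48.8%), 22.6% in control 2 (14.6 to 32.4%), 32.7% in mutant 1 (23.7 to 42.7%) and 36.1% in mutant 2 (28.8 to 44.0%). The controls spanned both mutants, and the mean difference was 2.10 percentage points (means 32.3% ± 13.8 in controls and 34.4% ± 2.45 in mutants, SD, n = 2 each, exact permutation p = 1). Members with an Ibsp UMI, 209 in all, were deeper, with a median of 12000, 14199, 12347 and 9814 UMIs against 9524, 10082, 10462 and 8224 UMIs in the 377 without. Splitting members by Ibsp uses their own counts, and the differences below are a description with no test. Of 3291 genes at 50 CPM or more, 586 (17.8%) were higher and 932 (28.3%) lower in members with Ibsp in all 4 libraries, and 471 and 672 after thinning.

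Of 18 bone matrix genes at 50 CPM or more, 9 were higher and 6 lower in members with Ibsp in all 4 libraries, and of 19 genes of collagen processing and secretion 16 were higher and none lower. Col1a1 stood at 13756, 9062, 7359 and 8890.2 CPM in members with an Ibsp UMI and at 2359, 1950.3, 1592 and 1648 CPM in those without, the latter below the level in Sp7-negative cells of the same library in all 4. Spp1 stood at 1432, 33, 1297 and 2584 CPM with and 11.8, 2.67, 3.73 and 35.8 CPM without, with control 2 far below the other libraries. The 3 mineralization genes at 50 CPM or more, Ifitm5, Smpd3 and Alpl, were higher in all 4 libraries. Ifitm5 stood at 1647, 751, 1107 and 885 CPM with and 70.8, 22.7, 49.7 and 95.2 CPM without. The other genes with the widest gap were 3 minor collagens of bone and cartilage, Col11a2, Col22a1 and Col24a1 (median log2 ratios 3.94, 3.75 and 3.62), the carbonic anhydrase Car3 (3.48), the citrate transporter Slc13a5 (3.39), Cgref1, the stress-response gene Nupr1 and the noncoding RNA Neat1. Pth1r (1.34) and Mef2c (0.80) were also higher in every library.

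The 6 lower matrix genes were Postn, Mgp, Bgn, Fbn2, Col3a1 and Col12a1. Postn, a matrix gene of periosteum, stood at 269, 245, 324 and 231 CPM without and 74.6, 52.7, 201 and 55.0 CPM with an Ibsp UMI. Aspn, a small proteoglycan gene, stood at 313, 349.5, 331 and 312 CPM without and 97.2, 36.2, 57.8 and 55.0 CPM with an Ibsp UMI. Both were lower with Ibsp in every library. Alcam (-1.81), Bnc2 (-1.90), Hpse2 (-1.97), Penk (-2.08), Pdzrn4, Adamtsl1, Sgcz and Csmd3 followed. Of 6 patterning genes of the facial mesenchyme at 50 CPM or more, 5 were lower with Ibsp in all libraries, among them Alx1 (-1.34), Prrx2 (-1.13) and Prrx1 (-0.73). The Wnt genes Lef1 (-1.06), Sfrp2 (-1.45) and Dkk2 (-1.54) were lower and Tcf7 (1.05), Dkk1 (1.86) and Wif1 (1.57) higher, the same directions as between members and Sp7-negative cells. Runx2 (0.08) and Dlx5 (0.09) differed little, in directions that varied between libraries. After thinning, 19.6, 47.6, 21.9 and 29.8% of members with Ibsp and 21.9, 25.7, 23.9 and 26.5% of those without carried a Mki67 or Top2a UMI, with the widest gap in control 2, where 21 members carried Ibsp.

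**Figure D4:**
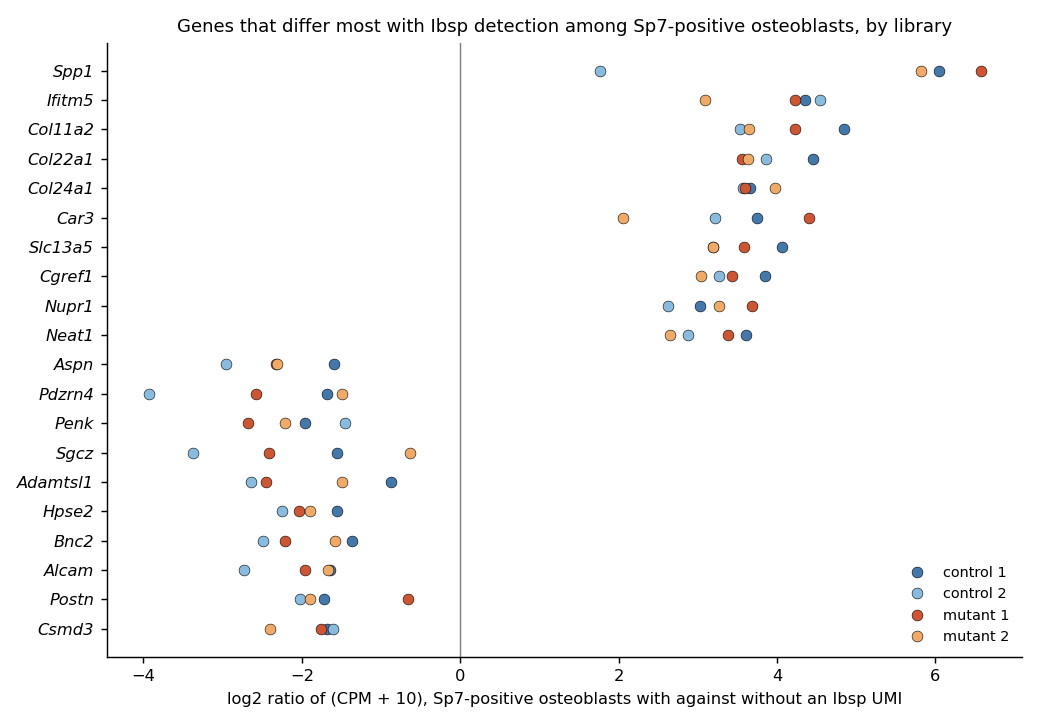
Log2 ratio (x axis, with 10 CPM added to each level) between Sp7-positive osteoblasts with and without an Ibsp UMI for the 10 genes highest and the 10 lowest by median (y axis), 1 point per library. All 4 libraries lie on the same side of 0 for each gene, as the choice of genes required, and Spp1 in control 2 lies at 1.76 against 5.82 or more in the other libraries.

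The study's own comparison, mutant against control, was made within the members. Yap1 (chr9:7931999-8004596) stood at 53.0, 66.5, 45.3 and 47.6 CPM in members, both mutants below both controls, a log2 change of -0.39 ± 0.22 (SE), and Wwtr1 (chr3:57455649-57575910) at 93.7, 84.5, 82.4 and 72.7 CPM, again without overlap (-0.26 ± 0.18). Neither passed the test (edgeR adjusted p = 0.999 and 0.999). Both mutants lay below both controls in this way for 12.0% of all 10088 genes tested in members. The assay reads the 3′ end, the sources used here do not say which exons are floxed, and a transcript that has lost an inner exon can still be counted, so these levels do not check the deletion. Sox10, whose regulatory sequence drives the Cre, stood at 0, 0.95, 0 and 1.25 CPM in members, that is 0, 1, 0 and 2 UMIs; Cre itself was not analysed here, and these counts do not show how many members descend from recombined cells.

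None of 10088 genes tested in members passed an adjusted p of 0.05 in edgeR's quasi-likelihood test (0% in either direction). At an unadjusted p under 0.05 there were 398 genes (3.95%), of which 206 were higher (2.04%) and 192 lower (1.90%) in mutants; DESeq2 gave 0 at an adjusted and 142 at an unadjusted p under 0.05. The count varied with the fit: without a filter on low counts edgeR called 115 genes, and without control 1, control 2, mutant 1 or mutant 2 it called 170, 41, 9 and 44. No gene was called in all 4 of these fits and 7 were called in 3, so that no set of changed genes can be named from them. In simulated data at this size and depth the test recovered 52% of genes changed 2-fold and 89% of those changed 4-fold, with 4 false calls. Every simulated gene had the same dispersion, 0.0208. These rates therefore need not hold for genes that vary more between libraries. Without overlap between the groups, 2097 genes (20.8%) were higher and 1211 (12.0%) lower in both mutants.

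Of 18 tested genes of a list of YAP, TAZ, their partners and their classic targets, 4 were lower and 1 was higher at an unadjusted p under 0.05 (median log2 change -0.17, all genes 0.00), and none passed the adjustment. Over all genes tested in members, 1.90% were lower and 2.04% higher at that p. Ccn1, a secreted matricellular protein gene, stood at 275, 278, 186 and 199.9 CPM, a log2 change of -0.57 ± 0.14 (edgeR adjusted p = 0.999). Amotl2, which binds and restrains YAP, stood at 42.2, 52.2, 27.5 and 26.3 CPM (-0.84 ± 0.23). Both mutants were below both controls for each, as for 12.0% of all genes tested. Lats2, a Hippo kinase gene, stood at 41.1, 39.9, 28.3 and 26.3 CPM (-0.62 ± 0.22) and Ccn2 at 30.3, 23.7, 21.0 and 15 CPM (-0.68 ± 0.29). Vgll3 was the higher one, at 9.17, 7.60, 18.6 and 14.4 CPM (0.87 ± 0.35). In Sp7-negative cells Ccn1 stood at 186, 285, 207 and 220.5 CPM and Amotl2 at 46.4, 76.5, 40.0 and 43.2 CPM, where mutants and controls overlapped for Ccn1 but not for Amotl2. Beside these values, the summed macrophage list was higher in control members (31.1 and 122 CPM) than in mutant members (4.04 and 16.9 CPM), and the neuronal list (132 and 146 against 248 and 162 CPM) and the glial list (6.38 and 3.80 against 11.3 and 6.89 CPM) were lower in control members; their part in the result was not tested.

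The osteoblast markers did not separate the groups. Alpl stood at 422, 309, 398 and 419 CPM (0.10 ± 0.17, edgeR adjusted p = 0.999), Dlx5 at 93.3, 122, 66.3 and 114 CPM (-0.27 ± 0.26) and Ibsp at 7714, 2275, 3459 and 3287 CPM (-0.62 ± 0.41). In each, controls and mutants overlapped. Control 1 was high in matrix genes: its Ibsp and Col1a1 levels were the highest, and the change of Col1a1, from 7594, 3999.7, 3608 and 4454 CPM, was -0.57 ± 0.24 (edgeR adjusted p = 0.999). Without control 1 the log2 change of Ibsp was 0.51, of Col1a2 0.17, of Sparc 0.56, of Ifitm5 0.76, of Phex 1.27 and of Dmp1 3.87, each of the other sign from the value with it (-0.62 ± 0.41, -0.40 ± 0.24, -0.19 ± 0.30, -0.39 ± 0.42, -0.67 ± 0.55 and -1.5 ± 0.99). Spp1, at 664, 11.4, 456 and 1023 CPM, was low in control 2 alone (1.04 ± 0.99, with 5.97, past the threshold, without control 1 and 0.12 without control 2), and Bglap was at 7.97, 4.75, 0.808 and 23.8 CPM (0.90 ± 0.86).

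Other lists gave single genes at an unadjusted p under 0.05, and none after adjustment. Over all genes tested in members, 2.04% were higher and 1.90% lower at that unadjusted p. Of 15 transcription factors tested, Msx1, a homeodomain gene of facial mesenchyme, stood higher at 102, 114, 208 and 156 CPM (0.70 ± 0.18), as did Twist1 (0.38 ± 0.16), and Runx1 stood lower at 85.3, 103, 50.9 and 72.7 CPM (-0.62 ± 0.23). Of 14 patterning genes of the facial mesenchyme 3 were higher and none lower: Alx1 at 189, 185, 367 and 237 CPM (0.63 ± 0.20), Pax3 at 35.1, 21.8, 60.6 and 50.1 CPM (0.83 ± 0.25) and Osr1 at 3.19, 10.4, 36.4 and 10.0 CPM (1.92 ± 0.69). The mutants overlapped the controls for Osr1 only, and that list had a median of 0.21. Over all genes tested, 20.8% were higher in both mutants without overlap. Of 20 Wnt genes Sfrp1 (-0.84 ± 0.23) and Rspo3 (-0.64 ± 0.24) were lower, and of 6 Notch genes Hey1 was higher (0.69 ± 0.30) and Hes1 lower (-0.75 ± 0.19). Of 20 proliferation genes Bub1 (0.68 ± 0.26), Ube2c (0.43 ± 0.18) and Aurka (0.65 ± 0.22) were higher. Enpp1 was the one such gene of 9 for mineralization (0.86 ± 0.36), and no gene of BMP, hedgehog, FGF, parathyroid hormone or collagen secretion reached it.

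The genes with the lowest p in each direction were of mixed kinds. Hspa1b, a heat-shock protein gene, stood at 4.78, 1.90, 38.8 and 25.1 CPM, a log2 change of 2.96 ± 0.43 (edgeR adjusted p = 0.443), and its neighbour Hspa1a, with which it shares most of its sequence so that reads may be split between them, at 19.5, 5.70, 95.4 and 32.0 CPM (2.03 ± 0.55). In Sp7-negative cells Hspa1b stood at 15.9, 3.85, 48.0 and 49.4 CPM, also higher in both mutants. Of 15 genes of the dissociation response, these 2 were higher and Egr1 (-0.79 ± 0.33) lower at an unadjusted p under 0.05, with a list median of -0.25. Skap1 at 0.399, 0, 9.70 and 11.3 CPM and Dpysl3, a cytoskeletal protein gene of neurons and mesenchyme, at 27.1, 26.6, 56.6 and 65.2 CPM (1.13 ± 0.21) were the others of the higher genes that lie outside the Sox10 locus. Lower in mutants were Klhl5 at 60.2, 82.6, 25.9 and 25.7 CPM (-1.49 ± 0.24), Foxp2, a forkhead factor, at 125, 208, 77.6 and 74.6 CPM (-1.15 ± 0.24), Rapgef4 at 18.3, 19.0, 4.04 and 6.27 CPM (-1.85 ± 0.38) and Gm11290 at 21.5, 20.9, 0.808 and 5.64 CPM (-2.63 ± 0.53). Klhl5 in Sp7-negative cells was 26.0, 26.2, 23.8 and 26.1 CPM, close to the mutant members in all 4 libraries. Lyz2, a myeloid lysozyme gene, stood at 19.1, 8.55, 0.808 and 0.627 CPM (-4.31 ± 0.73), and 50 of its 59 UMIs were in 2 members that carried macrophage transcripts, both in controls. Apoe was alike: 254 of its 445 UMIs were in those members, and its log2 change of -1.79 ± 0.41 became 0.28 without the 3 members with immune transcripts.

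Eif3l and Polr2f, also among the lowest p, are neighbours on the genome. Eif3l, a translation initiation factor subunit (chr15:79075179-79094405), stood at 99.2, 104, 189.9 and 205 CPM, a log2 change of 0.92 ± 0.15 (edgeR adjusted p = 0.443). Polr2f, an RNA polymerase subunit (chr15:79141009-79151774), stood at 183, 234, 378 and 422 CPM (0.91 ± 0.17, edgeR adjusted p = 0.655). Both mutants were above both controls for both genes. Sox10 lies beside them (chr15:79154908-79165240), and its regulatory sequence drives the Cre of the mutants. Within 100 kb of Sox10, a window chosen after these values were seen, 5 genes were tested, and 4 of them were above and 1 below the controls in both mutants. Over all 10088 genes tested in members, 20.8% were above and 12.0% below in this way. Between Eif3l and Polr2f lies Micall1 (chr15:79108898-79136900), at 6.38, 7.60, 14.5 and 16.3 CPM (1.13 ± 0.37), and on the far side of Eif3l lies Ankrd54 at 16.7, 10.4, 25.9 and 20.7 CPM (0.63 ± 0.32). On the other side of Sox10, Pick1 stood at 11.6, 11.4, 7.27 and 10.7 CPM and was the lower one. Sp7-negative cells gave like levels for the first 3, with Eif3l at 87.6, 82.6, 162 and 184 CPM, Polr2f at 196, 165, 357 and 331 CPM and Micall1 at 7.50, 6.33, 17.6 and 15.6 CPM, and overlapping groups for Pick1 at 13.9, 14.7, 14.6 and 15.1 CPM.

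**Figure D5:**
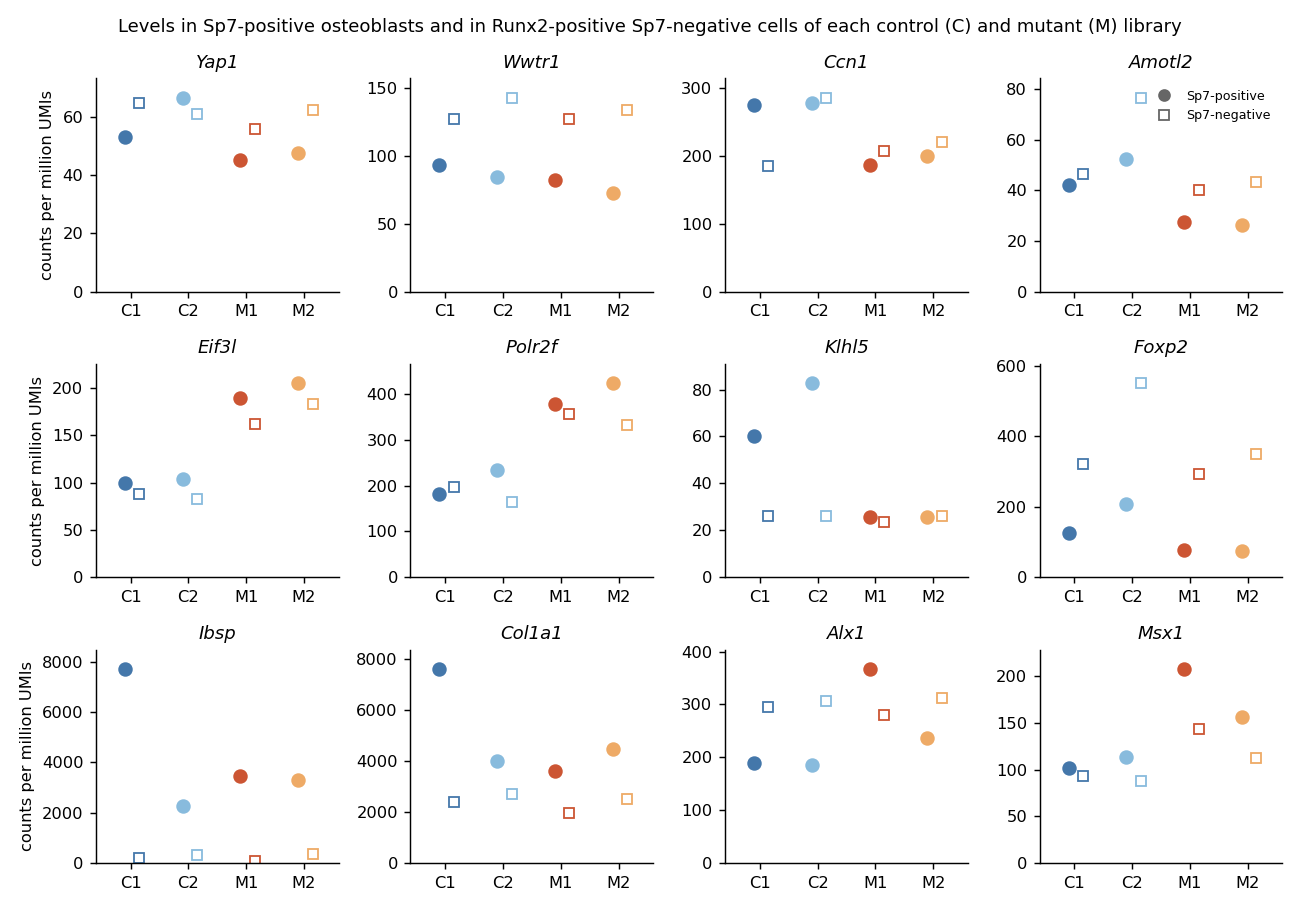
Level (y axis, CPM, from 0) of 12 genes in Sp7-positive osteoblasts (filled circles) and Runx2-positive Sp7-negative cells (open squares) of controls 1 and 2 (C1, C2) and mutants 1 and 2 (M1, M2). Eif3l and Polr2f are higher in both mutants in both kinds of cell, Klhl5 is high only in control osteoblasts among the 4 libraries shown, and Ibsp and Col1a1 are highest in control 1.

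Whether the mutant effect differed between members and Sp7-negative cells was tested as an interaction, with the library as a block. Lyz2 alone of 13013 genes passed an adjusted p of 0.05 (0.00768%), with a log2 difference of -5.17 ± 0.63 (edgeR adjusted p = 0.0130); 552 genes (4.24%) had an unadjusted p under 0.05. With the 3 members that carried immune transcripts removed, and no Sp7-negative cells removed, no gene passed, and the Lyz2 value was -2.17. It did not pass without the cells of the highest doublet scores (-3.20) or without mutant 2 (-2.94) either; without those cells 1 other gene passed, with a difference of the opposite sign. DESeq2 called none, with 89 genes at an unadjusted p under 0.05. Without control 1, control 2, mutant 1 or mutant 2, 41, 54, 21 and 54 genes passed.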

How the data were processed

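Nasal tissue was profiled in 4 single-cell libraries, 2 from control and 2 from mutant embryos. The deposited values are raw UMI counts per gene and barcode; the authors made them with Cell Ranger, version 8.0.1 per the file headers and version 4 with mm10 (GRCm38) per the submitters' processing notes, a conflict that was not settled. Barcodes under 500 genes or over 10% mitochondrial UMIs were dropped. Members and lists were chosen with earlier results of these data known. Doublets were scored with Scrublet (scanpy 1.11.5) in the 13739 cells kept from 15863 barcodes. Its automatic threshold marked 3 of these cells and had not worked, so members were kept. An alternative left out the highest scores, at 0.8% per 1000 barcodes. Macrophage-gated cells carried at least 3 of 7 myeloid genes.

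Counts were summed per library and cell group and tested with edgeR 4.0.16 (TMM, filterByExpr, quasi-likelihood, Benjamini-Hochberg, threshold 0.05); DESeq2 1.42.0 was an alternative. The procedure was tested on simulated data in which all genes of a comparison had the same dispersion. Changes of 2-fold and 4-fold were recovered in 52 and 89% of cases for mutant against control among 10108 genes, with 4 false calls. For members against Sp7-negative cells it was 87 and 97% among 12440 genes, with 14 false calls. For the interaction it was 23 and 74% among 13012 genes, with 0 false calls. Runx2, Sp7, Epcam, Pecam1 and Col2a1 were left out of calls, and 2 genes of the lists are not reported here or counted in them. Shares were compared over libraries with an exact permutation test. Named genes were the marker genes, the 5 with the lowest p in each direction, the 15 with the widest log2 gap in each direction between members and Sp7-negative cells (at least 50 CPM, same sign in 4 libraries), the 10 widest in each direction for the Ibsp split, and list genes past a threshold or among the most abundant. Gene positions are from GENCODE M21, matched for 32158 of 32285 features.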

Additional observations from a re-analysis of the deposited data

Results flagged for a closer look

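The effect of the mutation on Lyz2, the lysozyme gene of macrophages, differed between Sp7-positive osteoblasts and Runx2-positive Sp7-negative cells by a log2 value of -5.17, the one gene of the interaction test to pass. Its level in members was 19.1, 8.55, 0.808 and 0.627 CPM and in Sp7-negative cells 37.4, 17.2, 12.3 and 84.9 CPM in the order control 1, control 2, mutant 1, mutant 2. Of the 48 and 9 Lyz2 UMIs in the members of the 2 controls, 42 and 8 lay in a single cell of each library that also passed the macrophage gate, and both cells were in the set with the highest doublet scores. Without the 3 members that carried immune transcripts the value was -2.17. That fit removed no Sp7-negative cells. The macrophage and osteoclast list summed to 93.6, 195, 43.4 and 148 CPM in Sp7-negative cells.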

How the results depend on the processing

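The test of the shares could not pass in any setting. Thinning to 3000 UMIs turned overlapping groups into separate ones for members among kept cells and for Sp7 among Runx2-positive cells. With a library left out, the mutant-minus-control difference ranged from -1.88 to -0.094 percentage points for members among kept cells, -4.40 to 0.17 for Sp7 among Runx2-positive cells, -7.63 to 11.8 for Ibsp and -5.32 to 4.54 for cycling members. Mutant against control in members, the count of genes was 0 under DESeq2, its size factors, stricter cells, no high doublet scores, a stricter gate, Col2a1 at 0 and no immune members, 115 without a low-count filter, and 9 to 170 when a library was left out, where the lone library is assumed to vary like the other group. With a replicate block it was 4 (Ccdc162, Hist1h2ap, Hspa1b and Hspa1a). The sources used here do not say whether same-numbered libraries share a litter or a day. Their deviations correlated at -0.012 over 10091 genes, which cannot decide it with 2 libraries a group. Members against Sp7-negative cells, 2123 genes passed in DESeq2 and 1553 after thinning. For the interaction the counts were 0 in DESeq2, 58 without a filter, 3 with stricter cells, 2 with Col2a1 at 0, 1 (not Lyz2) without high doublet scores, 0 without the 3 immune members (an alternative chosen after seeing the data) and 21 to 54 when a library was left out. The cause of these shifts was not tested. With a library left out, log2 changes of mutant against control ranged across 0 for Ibsp (-1.24 to 0.51), Col1a2 (-0.80 to 0.17), Sparc (-0.67 to 0.56), Ifitm5 (-1.00 to 0.76), Dmp1 (-3.77 to 3.87) and Phex (-1.27 to 1.27), which reversed without control 1, for Alpl (-0.097 to 0.35) and Tead1 (-0.33 to 0.23), which reversed without control 2, and for Dlx5 (-0.75 to 0.049), which reversed without mutant 1. For Spp1 the range was 0.12 to 5.97. Signs also turned for Spp1 (-0.26) and Tead1 (0.0082) with Col2a1 at 0, and for Apoe without high doublet scores (0.49) and without the immune members (0.28). Other mutant-against-control values of named genes kept their sign. With 2 libraries a group and 93 to 226 members per library, 52% of simulated 2-fold changes were recovered, with the same dispersion set for every gene.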
